A study of Mus musculus with 15 samples.

Results

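Common dendritic cell progenitors (CDPs) without Id2 were set against WT CDPs, both sorted from mouse bone marrow and measured on Affymetrix whole-transcript arrays. The comparison was defined by sample title and holds 4 of the 15 arrays of the series, 2 of Id2 KO CDPs and 2 of WT CDPs. Id2 KO CDPs came from chimeric mice carrying Id2 KO and the Zbtb46-GFP reporter, and WT CDPs came from chimeric mice carrying the same reporter without the deletion. A further 8 arrays entered the fit: 2 of Batf3 KO CDPs, from Batf3 KO Zbtb46-GFP mice that are not labelled as chimeras, and 2 each of Id2 KO, Batf3 KO and WT Zbtb46-GFP+ c-Kit-intermediate cells from the same kinds of mice. All groups therefore carried the reporter. The labels give no age or sex, do not say which cells a chimera's host kept, and do not say whether 2 arrays of a group came from separate mice, so every p-value measures the spread between these arrays, which may be technical. The number of arrays limits the precision. The question was how far the expression programme of the progenitor was intact without Id2.

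CDPs are bone marrow progenitors, defined by the cytokine receptors Flt3 and Csf1r with low Kit, that give rise to plasmacytoid dendritic cells (pDCs) and to both classical subsets, cDC1 and cDC2. Id2 is a helix-loop-helix protein without a DNA-binding domain that pairs with the E proteins Tcf3 (E2A), Tcf4 (E2-2) and Tcf12 (HEB) and keeps them from binding E-box motifs. Tcf4 is required for pDCs, and mice without Id2 lack cDC1s. Zbtb46 marks progenitors committed to the classical lineages, and the Zbtb46-GFP+ c-Kit-intermediate cells are taken here as the later of the 2 stages measured.

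The promoters of 3 genes on which the results turn are printed for their E-box content: Id2, the deleted gene; Tlr3, an innate receptor of cDC1s; and Nfil3, a basic leucine zipper repressor. The sequences are the 250 bases before each transcription start in RefSeq (GRCm38.p6), all on the minus strand, at chr12:25096093-25096342 for Id2, chr8:45410381-45410630 for Tlr3 and chr13:52981040-52981289 for Nfil3. Capitals mark an E-box core, which is CAGCTG, the same on both strands, or CAGGTG, which reads as CACCTG on the other strand; both strands were searched.
Id2: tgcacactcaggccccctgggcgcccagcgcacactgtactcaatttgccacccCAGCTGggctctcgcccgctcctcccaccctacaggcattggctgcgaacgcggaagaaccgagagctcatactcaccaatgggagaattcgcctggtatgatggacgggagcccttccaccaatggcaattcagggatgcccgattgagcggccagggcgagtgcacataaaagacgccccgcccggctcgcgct
Tlr3: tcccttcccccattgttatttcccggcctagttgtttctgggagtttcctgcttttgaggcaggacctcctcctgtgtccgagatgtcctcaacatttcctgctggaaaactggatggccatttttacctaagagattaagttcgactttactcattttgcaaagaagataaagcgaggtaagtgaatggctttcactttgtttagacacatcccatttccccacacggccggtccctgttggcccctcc
Nfil3: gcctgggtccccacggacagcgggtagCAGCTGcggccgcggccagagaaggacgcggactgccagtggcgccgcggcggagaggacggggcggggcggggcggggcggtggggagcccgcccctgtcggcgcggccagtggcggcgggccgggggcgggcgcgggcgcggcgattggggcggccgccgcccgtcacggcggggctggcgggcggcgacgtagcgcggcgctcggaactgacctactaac
The Id2 window held CAGCTG starting 196 bases before the start site, the Nfil3 window held CAGCTG 223 bases before it, and none of these letters was in the Tlr3 window. Of 15008 tested genes with a promoter in the table, 4016 (26.8%) held at least 1 core. A match describes letters in a window and is no evidence of binding.

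Median signal ran from 100.8 to 112.1 on the 12 arrays used. In each Zbtb46-GFP+ group the first replicate had a scale of its own (medians of 23.8 to 24.1) and stayed out of the fit. The Zbtb46-GFP+ arrays used are therefore replicates 2 and 3. Any pair of these first replicates, though of different genotype, shared at least 17130 identical values among 28853 probe sets. Any other pair of arrays shared at most 22. A term for scale cannot restore a genotype difference to identical values, so fits that include these arrays are no check of it. The cause of the identity was not tested. Across genes, Id2 KO and WT CDP arrays of the same replicate number correlated at 0.994 to 0.996 and those of different number at 0.988 to 0.990, against 0.988 between both Id2 KO CDP arrays and 0.990 between both WT CDP arrays. The median absolute log2 difference was 0.12 between the replicate 1 arrays of Id2 KO and WT and 0.09 between the replicate 2 arrays, but 0.21 between both Id2 KO arrays and 0.22 between both WT arrays. The replicate number thus separated the CDP arrays more than the genotype did, and differences within a number are given beside the main values. The noncoding X-linked RNA Xist had log2 signals of 5.06 and 5.65 in Id2 KO CDPs and 12.41 and 12.42 in WT CDPs, and Kdm5d, Uty and Eif2s3y on Y were higher by 3.12, 3.23 and 3.38 in Id2 KO. Batf3 KO arrays matched Id2 KO arrays in these genes. Genes on X and Y were left out, and any effect of this difference on other genes cannot be told apart from that of genotype.

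Id2 was low in CDPs of both genotypes compared with the later stage. Its log2 signal was 7.08 and 5.96 in Id2 KO CDPs, 7.76 and 7.83 in Batf3 KO CDPs and 7.68 and 7.40 in WT CDPs. Both Id2 KO arrays lay below the 4 others, and replicate 2 of Id2 KO was the lowest of all 12 arrays. The difference was -1.03 (SE 0.32, 95% interval -1.73 to -0.32, adjusted p = 1 with limma over 19187 genes), so the deleted gene itself did not pass the test at this stage. Without replicate 1 of Id2 KO the difference was -1.58, and without replicate 2 it was -0.47. In Zbtb46-GFP+ cells Id2 had 8.39 and 8.82 in Id2 KO, against 11.999 and 11.47 in WT, a difference of -3.13 (SE 0.32, limma adjusted p = 0.000547). The deletion was thus seen in the transcript past the test in the later cells and not in CDPs. Which part of the gene the probe set covers relative to the deletion was not analysed here. In bulk RNA, fewer cells expressing a gene and less RNA per cell cannot be told apart, here and below.

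Of the partners of Id2, Tcf4 and Tcf12 stood close to WT levels, and Tcf3 was lower on both Id2 KO arrays. Tcf4 had 10.58 and 10.68 in Id2 KO CDPs, against 10.89 and 10.48 in WT CDPs, a log2 difference of -0.05 (95% interval -0.62 to 0.52). Tcf12 had 10.27 and 10.14 in Id2 KO, against 10.46 and 10.20 in WT (-0.12, interval -0.46 to 0.21). The WT arrays bracketed Tcf4 in both Id2 KO arrays, and the groups overlapped for Tcf12 too. Tcf3 had 9.35 and 9.34 in Id2 KO, against 9.97 and 9.49 in WT. Its groups did not overlap, and the difference was -0.38 (SE 0.17, limma adjusted p = 1); it was -0.14 without replicate 1 of WT and -0.63 without replicate 2 of WT. The related inhibitors Id1, Id3 and Id4 differed by 0.25, -0.01 and -0.12, with overlapping groups for all 3. All 11 measured genes in this group other than Id2 had a 95% interval within -1 to 1, that is, a change of less than 2-fold either way. Of the 11 genes 0 passed the test, and 1 was lower at an unadjusted limma p under 0.05, as were 0.261% of all genes. In Zbtb46-GFP+ cells Tcf4 was higher in Id2 KO (11.66 and 11.57) than in WT (9.67 and 10.49), by 1.54 (SE 0.26, limma adjusted p = 0.0119). The difference between the stages for Tcf4 was 1.59 and did not pass (limma adjusted p = 0.151).

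**Figure D1:**
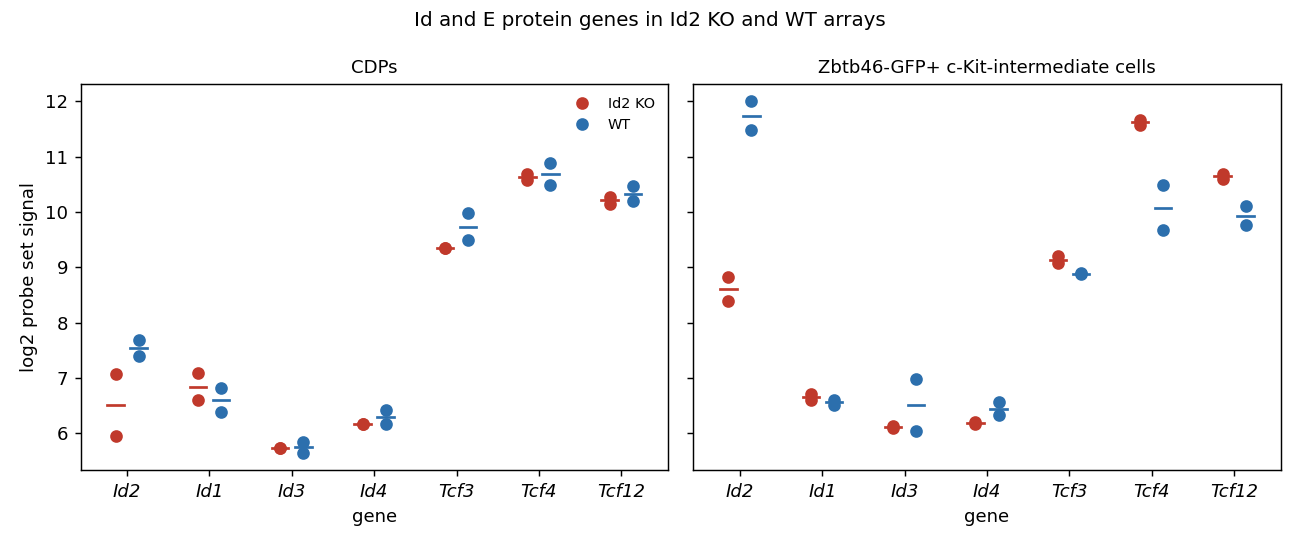
Log2 probe set signal of the Id genes and E protein genes (x axis) in CDPs (left) and Zbtb46-GFP+ c-Kit-intermediate cells (right); each point is an array, lines are means of 2 arrays, Id2 KO left of WT. Id2 differs by -1.03 between Id2 KO and WT in CDPs and by -3.13 in Zbtb46-GFP+ cells, and Tcf4 lies higher in Id2 KO in the right panel.

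Over all 19187 genes not on X or Y, 0 (0%) differed between Id2 KO and WT CDPs at an adjusted p under 0.05 (limma, 12 arrays, smallest adjusted p = 0.217). With the replicate number as a block over the 6 CDP arrays 3 genes passed (Lipo3, Mgl2 and Ltf) and 617 were at an unadjusted p under 0.05; same-numbered CDP arrays deviated together, with no label that says what a number marks. Without that block 116 (0.605%) were at an unadjusted p under 0.05, 66 higher and 50 lower in Id2 KO. The median log2 difference was 0.0021, and 90% of genes, from the 5th to the 95th percentile, lay between -0.18 and 0.19. For 18945 genes (98.7%) the 95% interval lay within -1 to 1. An interval within these bounds says that a 2-fold change was not measured for that gene; it leaves smaller changes undetected at this number of arrays, as the median SE was 0.17. A log2 difference of at least 1 was seen for 9 genes higher and 5 lower (0.073% of genes together).

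For the receptors by which a CDP is sorted and sustained, the intervals allowed changes of less than 2-fold. Both groups were sorted as CDPs, so similar levels of these receptors can follow from the sort and are no test of the programme. Flt3, the receptor that drives DC development, had 11.22 and 11.36 in Id2 KO CDPs, against 11.54 and 11.16 in WT CDPs (-0.06, interval -0.67 to 0.55). Csf1r, the M-CSF receptor, had 11.08 and 11.15 in Id2 KO, against 11.15 and 11.13 in WT (-0.02, interval -0.51 to 0.47). Both genes overlapped between the genotypes. Kit, the stem cell factor receptor, had 9.41 and 9.69 in Id2 KO, against 9.72 and 9.70 in WT (-0.16, interval -0.50 to 0.17), with replicate 1 of Id2 KO the lowest. Cd34, a sialomucin of progenitors, had 11.06 and 11.34 in Id2 KO, against 11.31 and 11.53 in WT (-0.22, interval -0.55 to 0.11). As a check of the label, Csf1r was 10.19 and 10.33 in Id2 KO and 8.83 and 9.40 in WT Zbtb46-GFP+ cells, and Cd34 was 8.76 and 9.06 in Id2 KO and 8.97 and 9.0 in WT; both genes were thus higher on all 4 CDP arrays than on these. Kit was higher in the Zbtb46-GFP+ cells, with 10.34 and 10.32 in Id2 KO and 11.05 and 11.37 in WT.

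Of the 29 receptor and surface genes measured, 0 passed the test, 27 had an interval within -1 to 1, and the median difference was -0.02, beside 0.0021 for all genes. The exceptions to the bound were Siglech and Cd7. Siglech, a sialic acid-binding lectin of pDCs and their precursors, had 9.90 and 9.70 in Id2 KO, against 9.69 and 8.51 in WT (0.70, interval -0.32 to 1.72). Replicate 2 of WT was the low array: without it the difference was 0.11, and without replicate 1 of WT it was 1.29. Cd7 had 9.87 and 9.10 in Id2 KO, against 9.94 and 8.54 in WT. Cd27, a TNF receptor family member, had 8.75 on both Id2 KO arrays, against 9.44 and 8.98 in WT (-0.46, SE 0.21, limma adjusted p = 1). The GM-CSF receptor chains Csf2ra and Csf2rb differed by 0.26 and 0.15, and the G-CSF receptor Csf3r by 0.27, with intervals within the bound. The groups did not overlap for 5 of the 29 genes on the higher side and 3 on the lower side, where 6.63% and 6.38% of all genes did so.

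Among transcription factors of the DC lineages, Irf8, Nfil3, Zeb2, Batf3 and Zbtb46 also had intervals within -1 to 1. Irf8, which is needed for CDP function and for cDC1s, had 12.80 and 12.82 in Id2 KO CDPs, against 12.93 and 12.62 in WT CDPs (0.03, interval -0.29 to 0.35). Nfil3 had 10.11 and 9.59 in Id2 KO, against 10.01 and 9.36 in WT (0.17, interval -0.43 to 0.77). Zeb2, a repressor active in pDCs and cDC2s, had 9.74 and 10.02 in Id2 KO, against 9.92 and 9.85 in WT (-0.01, interval -0.64 to 0.62). All 3 overlapped between genotypes. Batf3, the AP-1 factor of cDC1s, differed by -0.08 (interval -0.48 to 0.32), and Zbtb46 itself by -0.18 (interval -0.50 to 0.14).

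Of 41 such factors measured, 0 passed the test, 39 were bounded within -1 to 1, and the median difference was 0.03. Spib and Spi1 were not bounded. Spib, an Ets factor of pDCs and B cells, had 6.73 and 6.28 in Id2 KO, against 6.83 and 5.62 in WT. Spi1 (PU.1) had 10.10 and 10.47 in Id2 KO, against 10.86 and 10.62 in WT (-0.46, interval -1.33 to 0.42), and its groups did not overlap. The value closest to the unadjusted threshold on the higher side was that of Cebpe, a factor of late granulocyte development, with 7.65 and 7.25 in Id2 KO, against 7.07 and 7.13 in WT (0.35, interval -0.01 to 0.72). The median of these factors was -0.06 in the replicate 1 pair and 0.05 in the replicate 2 pair.

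Genes of stem and early progenitor cells lay slightly below WT in the median. Over 31 measured genes the median difference was -0.11, with -0.24 in the replicate 1 pair and -0.02 in the replicate 2 pair; all 31 intervals were within -1 to 1 and 0 passed the test. The groups did not overlap for 8 of the 31 on the lower side, where this held for 6.38% of all genes, and for 1 on the higher side, where it held for 6.63%. Hoxa10, a homeobox factor, was the 1 gene at an unadjusted p under 0.05, with 5.03 and 5.36 in Id2 KO CDPs, against 5.61 and 5.42 in WT CDPs (-0.32). Meis1, a homeodomain factor of stem cells, had 7.93 and 8.13 in Id2 KO CDPs, against 8.67 and 8.14 in WT CDPs (-0.38, interval -0.89 to 0.14). Tal1, a helix-loop-helix factor that itself pairs with E proteins, had 7.26 and 7.54 in Id2 KO, against 7.62 and 7.77 in WT (-0.30, interval -0.68 to 0.08). Myb, a factor of proliferating progenitors, overlapped between the groups at 10.44 and 10.73 in Id2 KO and 10.76 and 10.66 in WT. The 32 cell division genes had a median of -0.01, and all 32 were bounded.

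The lists of DC lineage genes had median differences near 0. Over 32 pDC genes the median difference was 0.06 (-0.07 in the replicate 1 pair, 0.14 in the replicate 2 pair). Of these 0 passed the test and 23 were bounded, where 98.7% of all genes were. For genes not bounded, here and in the lists below, the interval allowed a 2-fold change. Ly6d, a surface protein of lymphoid-primed progenitors and pDC precursors, had 8.55 and 8.05 in Id2 KO CDPs, against 8.53 and 7.51 in WT CDPs. Cd300c, an immunoglobulin superfamily receptor, had 10.05 and 9.90 in Id2 KO, against 9.96 and 8.99 in WT (0.50, interval -0.18 to 1.18). Batf3 KO CDPs had 10.43 and 10.43 for Cd300c, above both. Replicate 2 of WT was again the low array for Siglech, Ly6d, Cd300c and Spib. Lymphoid progenitor and B-lineage genes had a median of -0.01 over 26 genes with 23 bounded; Dntt, the template-independent polymerase of lymphoid precursors, had 6.48 and 6.79 in Id2 KO, against 7.32 and 6.65 in WT, and Il7r had 6.0 and 5.75 in Id2 KO, against 6.15 and 5.67 in WT.

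For cDC1 genes the median was 0.01 over 30 genes other than Id2, with 28 bounded and 0 that passed. Differences over this list ran from -0.27 to 0.56. The groups did not overlap for 4 of the 30 on the higher side and 4 on the lower. Of all genes, 6.63% and 6.38% did not. Clec9a, a receptor for dead cells found on cDC1s and on CDPs, had 9.48 and 9.58 in Id2 KO CDPs, against 9.90 and 9.67 in WT CDPs (-0.26, interval -0.56 to 0.05), and was 1 of those on the lower side. Xcr1, the chemokine receptor of mature cDC1s, had 5.42 and 5.98 in Id2 KO, against 5.56 and 5.99 in WT. For cDC2 genes the median was 0.10 over 28 genes, 21 of them bounded, where 98.7% of all genes were. The 4 highest values of this list, and also its lowest, were those of C-type lectins. Mgl2 had 7.78 and 7.06 in Id2 KO, against 6.56 and 6.13 in WT (1.07, interval -0.05 to 2.20), Clec4b1 had 6.51 and 4.68 in Id2 KO, against 4.73 and 4.48 in WT (0.99), Clec4a2 had 7.66 and 5.32 in Id2 KO, against 6.02 and 5.52 in WT (0.72), and Clec10a had 8.84 and 8.40 in Id2 KO, against 8.11 and 7.68 in WT (0.73, interval -0.50 to 1.95). Cd209d had 5.03 and 5.51 in Id2 KO, against 5.69 and 5.41 in WT (-0.29). The groups did not overlap for 5 of the 28 genes on the higher side, Mgl2 and Clec10a among them, and for 0 on the lower. Of all genes, 6.63% and 6.38% did not. In the fit 0 of the 28 genes passed the test. With the replicate number as a block over the 6 CDP arrays Mgl2 passed (limma adjusted p = 0.0209). MHC class II and antigen processing genes had a median of -0.01 over 18 genes, all 18 bounded.

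The genes farthest from WT in the median belonged to neutrophils and their granules, with a larger median difference in the replicate 1 pair. Over 21 genes the median difference was 0.44, with 0.69 in the replicate 1 pair and 0.14 in the replicate 2 pair; 20 of the 21 were above 0 in the replicate 1 pair and 15 in the replicate 2 pair. In the fit 0 passed the test, 4 were higher at an unadjusted p under 0.05, where 0.344% of all genes were, and 5 were bounded. Elane, the neutrophil elastase of promyelocytes, had 11.15 and 10.05 in Id2 KO CDPs, against 9.43 and 9.58 in WT CDPs (1.09, SE 0.33, limma adjusted p = 1). Ms4a3, a marker of granulocyte and monocyte progenitors, had 9.92 and 8.67 in Id2 KO, against 8.16 and 8.64 in WT. In both genes replicate 1 of Id2 KO was the high array. Ltf, the granule protein lactoferrin, had 10.69 and 9.08 in Id2 KO, against 9.85 and 8.07 in WT (0.93, interval -0.62 to 2.47), with 0.84 in the replicate 1 pair and 1.02 in the replicate 2 pair, and passed with the replicate number as a block over the 6 CDP arrays (limma adjusted p = 0.0287). The summed signal of the list, on a log2 scale, was 15.47 and 14.87 in Id2 KO, 14.72 and 14.60 in Batf3 KO and 14.96 and 14.76 in WT. Without replicate 1 of Id2 KO the median was -0.06. That value sets replicate 2 of Id2 KO against both WT arrays, so the replicate number is not matched in it. The matched replicate 2 pair gave the 0.14 above. Mpo, the myeloperoxidase of myeloid progenitors, had 12.98 and 13.38 in Id2 KO, against 13.05 and 13.32 in WT, and Ctsg, cathepsin G, had 12.03 and 11.75 in Id2 KO, against 11.72 and 11.92 in WT; these granule genes overlapped.

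The summed signals of basophil, eosinophil and monocyte genes were also highest on replicate 1 of Id2 KO, and 0 genes of these lists passed the test. Prss34 and Mcpt8, serine proteases of basophils, had 10.69 and 8.75, and 10.59 and 9.41, in Id2 KO CDPs, against 6.83 and 8.59, and 8.69 and 8.93, in WT CDPs. The difference for Prss34 was 3.86 in the replicate 1 pair and 0.16 in the replicate 2 pair; for Mcpt8 it was 1.91 and 0.49. Prg2, the major basic protein of eosinophils, had 8.90 and 6.18 in Id2 KO, against 5.92 and 6.41 in WT. The basophil and mast cell list had a median of 0.11 over 18 genes, 3 of them higher at an unadjusted p under 0.05 (0.344% of all genes), and a log2 summed signal of 12.44 and 11.70 in Id2 KO, 11.41 and 11.65 in Batf3 KO and 11.45 and 11.58 in WT. The eosinophil list summed to 10.11 and 9.34 in Id2 KO, 9.24 and 9.34 in Batf3 KO and 9.11 and 9.42 in WT. Fcer1a, the IgE receptor chain, had 7.12 and 5.4 in Id2 KO, against 5.07 and 5.49 in WT. The monocyte and macrophage list had a median of 0.24 over 19 genes (0.04 without replicate 1 of Id2 KO). At an unadjusted p under 0.05 there were 3 genes higher, and 0 without replicate 1 of Id2 KO; the groups did not overlap for 8 on the higher side and 3 on the lower, where 6.63% and 6.38% of all genes did not. Among the 3 genes was Fn1, fibronectin, at 10.12 and 9.54 in Id2 KO, against 9.39 and 8.47 in WT (0.90, interval 0.18 to 1.63). Batf3 KO CDPs had 9.67 and 9.57 for Fn1, a difference from WT of 0.69, so most of it was not particular to Id2 KO. No array signal is 0, so no marker can be called absent. The part that other cells in the sort had in these values was not tested.

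Erythroid and megakaryocyte genes (14 measured, median -0.02) and T, NK and innate lymphoid genes (20 measured, median 0.01) were all bounded within -1 to 1. Interferon-stimulated genes had a median of 0.22 over 24 genes, with 0.19 in the replicate 1 pair and 0.25 in the replicate 2 pair. The list's log2 summed signal was 12.51 and 12.36 in Id2 KO CDPs and 12.36 and 12.19 in WT CDPs. In Batf3 KO CDPs the sum was 12.53 and 12.30, also above WT at both replicate numbers. The groups did not overlap for 8 of these 24, all higher in Id2 KO, where 6.63% of all genes did so; 0 passed the test and 0 were at an unadjusted p under 0.05. Rtp4, a chaperone induced by interferon, had 7.17 and 7.01 in Id2 KO CDPs, against 6.36 and 6.66 in WT CDPs (0.58, interval -0.31 to 1.47). Mx2, an antiviral GTPase, had 6.15 and 6.31 in Id2 KO, against 5.77 and 5.50 in WT. Immediate early and stress genes had a median of -0.02 over 24 genes.

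**Figure D2:**
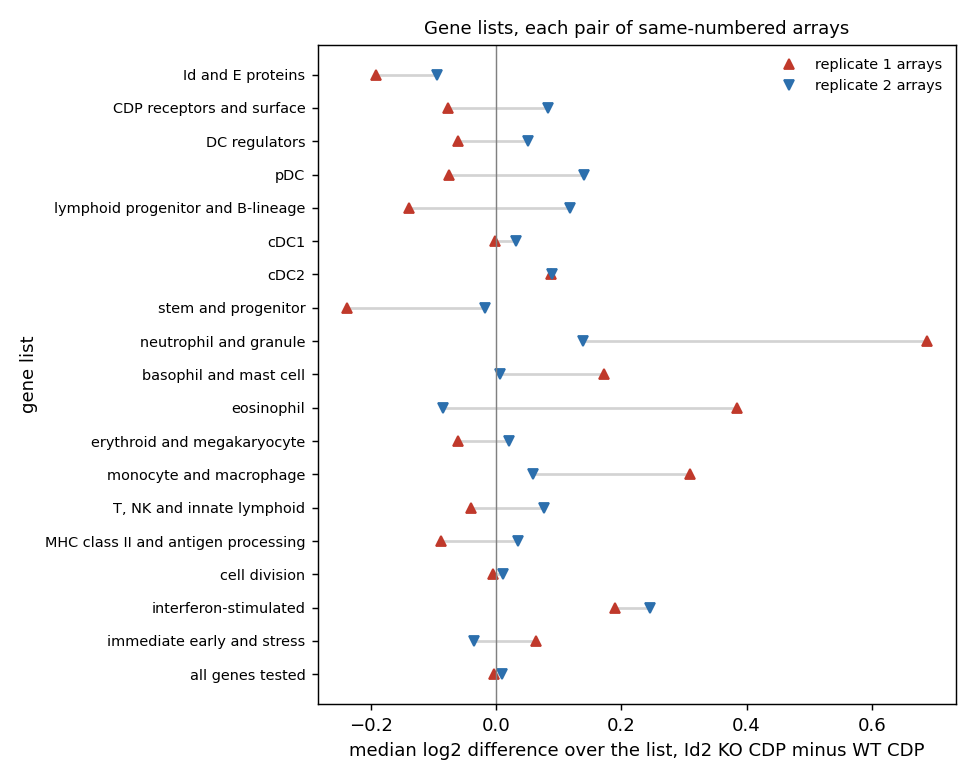
Median log2 difference, Id2 KO CDP minus WT CDP, over each of 18 gene lists (y axis), computed in the replicate 1 arrays (upward triangles) and in the replicate 2 arrays (downward triangles). The neutrophil and granule list stands at 0.69 in the replicate 1 pair and 0.14 in the replicate 2 pair, and the interferon-stimulated list at 0.19 and 0.25.

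The 10 genes in each direction with the largest moderated t are given as values, since none passed the test. Lipo3, a lipase family member, led the higher side with 6.91 and 6.74 in Id2 KO CDPs, beside 8.23 and 8.32 in Batf3 KO CDPs, against 5.19 and 5.63 in WT CDPs (Id2 KO minus WT 1.41, SE 0.19, interval 1.00 to 1.82, limma adjusted p = 0.217). It was the gene with the smallest adjusted p. It passed when the replicate number was a block over the 6 CDP arrays (limma adjusted p = 0.0205). With genes on X and Y kept it also passed (limma adjusted p = 0.0454), at the same difference of 1.41. There the called Xist, Kdm5d, Uty and Eif2s3y enter the same Benjamini-Hochberg ranking, so this pass is no added support for Lipo3. Ly6a2, a Ly6 family gene, had 10.62 and 9.50 in Id2 KO, against 9.02 and 8.59 in WT (1.26), and Mtus1, a microtubule-associated tumour suppressor, had 7.18 and 7.03 in Id2 KO, against 6.62 and 6.34 in WT (0.62). Both of these genes lay above WT in the replicate 1 and the replicate 2 pair. Clec5a and Trem3, activating receptors of myeloid cells, were on this list with Elane; Clec5a differed by 1.56 in the replicate 1 pair and 0.53 in the replicate 2 pair, and Trem3 by 1.55 and 0.17. Fcgr1, the high-affinity IgG receptor, differed by 0.57 and Ifi207, an interferon-inducible gene, by 0.44. Between Batf3 KO and WT CDPs the difference was 0.16 for Elane, 0.47 for Clec5a, 0.01 for Fcgr1 and 0.58 for Ifi207. Zpbp and Olfr605, genes of sperm and of olfaction by name, differed by 0.38 and 0.35.

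On the lower side, Gja1, the gap junction protein connexin 43, had 6.79 and 6.80 in Id2 KO CDPs, against 7.36 and 7.45 in WT CDPs (-0.61, SE 0.13). Cryab, a small heat shock protein, had 6.55 and 6.91 in Id2 KO, against 7.94 and 7.67 in WT (-1.07, interval -1.60 to -0.55). Syce1, a component of the synaptonemal complex, had 6.37 and 8.19 in Id2 KO, against 9.60 and 9.0 in WT (-2.02, interval -3.23 to -0.80). Batf3 KO CDPs had 6.43 and 6.29 for Gja1, 6.80 and 7.07 for Cryab, and 6.18 and 6.09 for Syce1, so all 3 genes were below WT in both knockouts, which share the WT arrays. Kdm5b, a demethylase of histone H3 lysine 4, had 7.35 on both Id2 KO arrays, against 8.28 and 8.0 in WT (-0.79). Erbb3, a receptor tyrosine kinase, differed by -0.94, Auts2 by -0.83, Plcd3, a phospholipase C, by -0.82, Zfp36l1, an mRNA decay factor, by -0.51 and Mab21l1 by -0.51; Id2 was the tenth. All 20 genes kept their direction in every alternative setting tried, and of these 20 Lipo3 alone passed the test in any of them. The 20 were chosen on the same arrays, so a kept direction is no independent support.

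**Figure D3:**
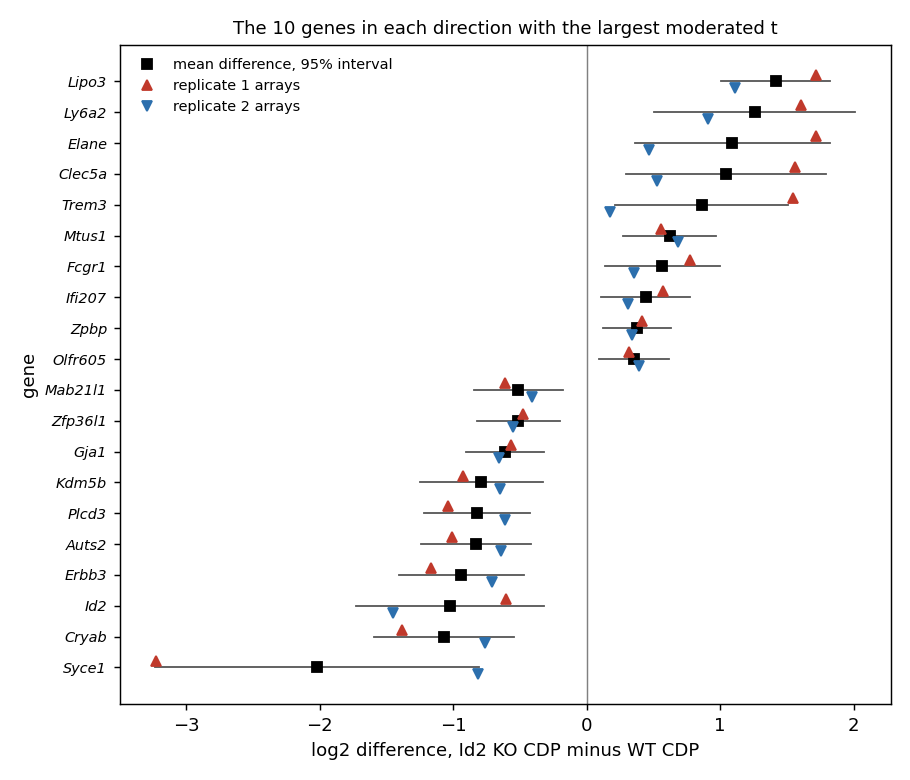
Log2 difference, Id2 KO CDP minus WT CDP (x axis), for the 10 genes in each direction with the largest moderated t; squares are means with 95% intervals from limma, triangles are the differences between the replicate 1 arrays and between the replicate 2 arrays. Lipo3 lies at 1.41 with similar values in both pairs, while Trem3 lies at 1.55 in the replicate 1 pair and 0.17 in the replicate 2 pair.

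Other genes with a difference of at least 1, named after their values were seen, mostly differed on 1 array. An immunoglobulin kappa variable gene (probe set 10545173) had 3.94 and 4.12 in Id2 KO CDPs, against 4.06 and 6.95 in WT CDPs, so replicate 2 of WT decided it. Slc15a2, a peptide transporter, had 5.99 and 7.44 in Id2 KO, against 7.91 and 7.63 in WT. Kcnma1, a calcium-activated potassium channel, had 13.10 and 12.67 in Id2 KO and 5.57 and 5.60 in Batf3 KO, against 11.15 and 5.44 in WT, on the probe set with the higher mean. Its other probe set had 5.41 and 5.45 in Id2 KO, against 5.08 and 5.45 in WT, so the probe sets disagree and no level of the gene is drawn from them. In the replicate 1 pair 43 genes were higher by at least 1 and 17 lower, against 9 and 5 in the replicate 2 pair. Kcnma1 and Lipo3 were the 2 genes higher by at least 1 in both pairs, and 0 were lower by at least 1 in both.

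The programme of the stage was then read from genes that had been chosen without the 4 arrays compared. In Batf3 KO arrays alone, 27 genes were higher by at least 2 on the log2 scale in CDPs than in Zbtb46-GFP+ cells without overlap (CDP-stage genes), and 115 were lower by at least 2 (Zbtb46-GFP+-stage genes, 114 without Id2). At the threshold, Bcl2 lay just inside at 2.037 and Gm4759 just outside at 1.9817 for the first set, and Fcrl1 inside at 2.0095 and Gpr141 outside at 1.9996 for the second. Both sets describe the stage step of Batf3 KO cells. Genes with a small step in those cells could not enter, such as Gcsam (CDP minus Zbtb46-GFP+ -0.17) and Gpr141b (-0.74), described below. The median signal of the CDP-stage genes was 10.37 and 10.21 in Id2 KO CDPs and 10.43 and 10.07 in WT CDPs, while it was 8.45 and 8.31 in Id2 KO Zbtb46-GFP+ cells and 7.04 and 7.08 in WT Zbtb46-GFP+ cells. The Id2 KO CDP arrays lay between the WT CDP arrays. Their differences between Id2 KO and WT CDPs had a median of -0.06 (-0.25 in the replicate 1 pair, 0.06 in the replicate 2 pair) and ran from -0.46 to 0.29; 0 passed the test and 25 (92.6%) were bounded within -1 to 1, where 98.7% of all genes were.

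The 5 CDP-stage genes with the largest stage difference were Ctsg and Mpo, described above, Igfbp4, Adgrg3 and F13a1. Igfbp4, a binding protein of insulin-like growth factors, had 10.78 and 10.77 in Id2 KO CDPs, against 10.83 and 10.81 in WT CDPs (-0.04, interval -0.31 to 0.23). Adgrg3, an adhesion G protein-coupled receptor, differed by -0.01 (interval -0.40 to 0.37), and F13a1, a coagulation factor subunit of myeloid cells, had 11.64 and 11.85 in Id2 KO, against 11.43 and 11.59 in WT (0.24, interval -0.15 to 0.62). Mpo was not bounded (interval -1.28 to 1.27); its spread is estimated over all 6 groups, and it had 9.46 and 6.87 on the WT Zbtb46-GFP+ arrays.

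For the Zbtb46-GFP+-stage genes the median signal was 7.04 and 6.65 in Id2 KO CDPs and 6.86 and 6.66 in WT CDPs, against 9.13 and 8.86 in Id2 KO and 9.42 and 9.90 in WT Zbtb46-GFP+ cells. Their differences between Id2 KO and WT CDPs had a median of 0.10 (0.09 in the replicate 1 pair, 0.04 in the replicate 2 pair) and ran from -0.51 to 0.99; 0 passed the test, 0 reached 1, and 84 (73.7%) were bounded. Without replicate 1 of Id2 KO the median was -0.04, with replicate 2 of Id2 KO set against both WT arrays. The class II genes led this set: H2-Aa, an MHC class II chain, had 7.25 and 6.37 in Id2 KO CDPs, against 7.54 and 6.65 in WT CDPs (-0.28, interval -0.94 to 0.38), Cd74, the invariant chain, differed by -0.12, H2-Eb1 by -0.08 and H2-Ab1 by 0.19. Plbd1, a lysosomal phospholipase-like protein, had 8.80 and 7.59 in Id2 KO, against 8.19 and 7.17 in WT (0.52, interval -0.36 to 1.39). In Zbtb46-GFP+ cells H2-Aa had 13.29 and 13.19 in Id2 KO, against 13.62 and 13.53 in WT, so the CDP arrays of both genotypes lay far below that stage.

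**Figure D4:**
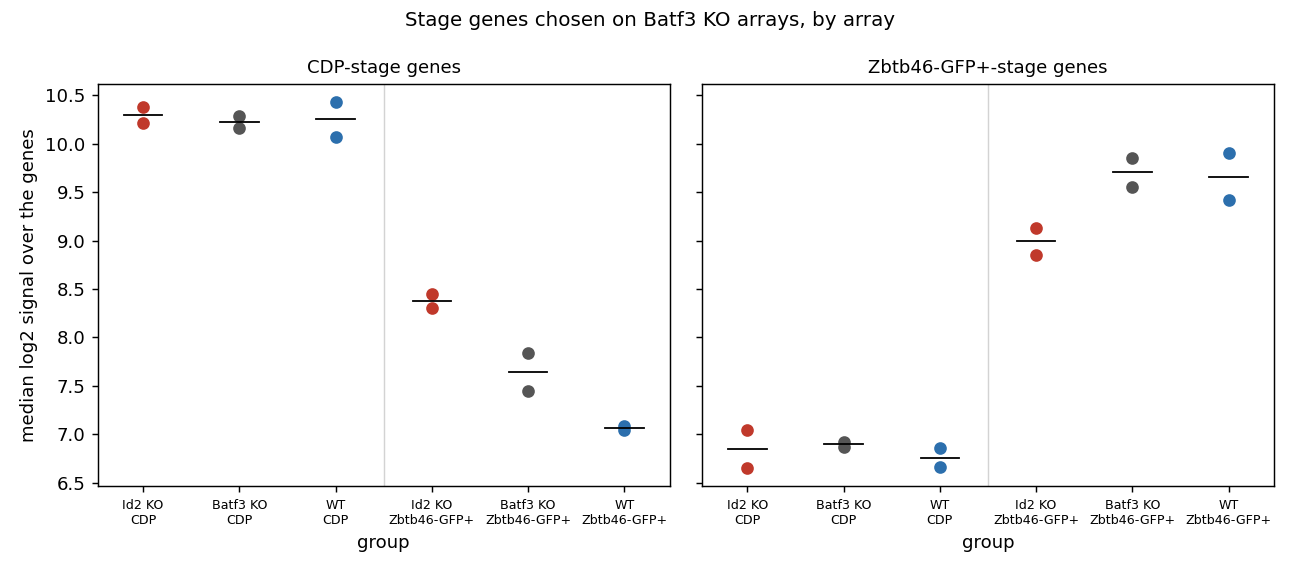
Median log2 signal over the 27 CDP-stage genes (left) and the 114 Zbtb46-GFP+-stage genes (right) on each array (points), by group; the genes were chosen on the Batf3 KO arrays, whose separation is therefore given by the choice. Id2 KO CDPs (10.37 and 10.21) and WT CDPs (10.43 and 10.07) lie together in the left panel.

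Set against Batf3 KO CDPs, which carry another deletion and are not labelled as from chimeras, Id2 KO CDPs differed in 5 genes (0.0261%) at an adjusted p under 0.05 (limma), 1 higher (0.00521%) and 4 lower (0.0208%). Ifi202b and Ifi205, interferon-inducible genes, had 4.07 and 4.24, and 7.16 and 6.33, in Id2 KO CDPs, against 6.10 and 6.36, and 9.37 and 9.28, in Batf3 KO CDPs; the differences were -2.08 and -2.58. Olfr432, an olfactory receptor gene, differed by -2.14 and Lipo3 by -1.45. A530040E14Rik, measured by 5 probe sets of unequal response, was higher by 2.49. For Ifi202b, Ifi205 and Olfr432 the difference between Id2 KO and WT CDPs was -0.14, -0.25 and -0.06. A530040E14Rik had 9.53 and 8.99 in Id2 KO CDPs, against 8.94 and 8.13 in WT CDPs (0.72, interval 0.09 to 1.36, limma adjusted p = 1), and these groups did not overlap. Of the 5 genes, 4 lie on chromosome 1, which also carries Batf3, and Lipo3 lies on chromosome 19. Between Batf3 KO and WT CDPs 5 genes (0.0261%) passed as well, 4 higher (0.0208%) and 1 lower (0.00521%), with Lipo3 at 2.86, Ifi205 at 2.33, Olfr432 at 2.07, Ifi202b at 1.94 and Gja1 at -1.04; this comparison shares the WT arrays with that of Id2 KO.

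The effect of Id2 loss differed between the stages. The interaction, the Id2 KO minus WT difference in Zbtb46-GFP+ cells less that in CDPs, passed for 58 genes (0.302%), 22 above 0 (0.115%) and 36 below 0 (0.188%) at a limma adjusted p under 0.05. With each array centred on its 75th percentile the split was 16 above and 39 below 0, with the median interaction over all genes at -0.12 instead of -0.01, and with quantile normalization it was 76 above and 87 below. With 1 array left out the count ran from 21 to 78, with 7 above and 21 below without replicate 1 of WT CDPs, 12 above and 24 below without replicate 1 of Id2 KO CDPs, and 22 and 21 genes in all without replicates 2 and 3 of Id2 KO Zbtb46-GFP+ cells. Of these 58 genes, 56 differed by less than 0.5 between Id2 KO and WT CDPs. Within -1 to 1 there, 55 were bounded, as were 98.7% of all genes. Their largest absolute CDP difference was 0.66 and the median 0.13, beside a median of 0.07 over all genes. The median absolute difference of the 58 in Zbtb46-GFP+ cells was 1.78. In Zbtb46-GFP+ cells alone, 331 genes (1.73%) passed between Id2 KO and WT, 202 higher (1.05%) and 129 lower (0.672%). That split was 176 and 159 with 75th percentile centring and 351 and 284 with quantile normalization. It was 97 and 95 on 15 arrays with a term for the 3 on another scale, and 793 and 374 with an array set block. The array set is not a label. In each group the array with the lower 75th percentile of signal formed 1 set, so the block was chosen from the values tested. The counts of both tests fell to 0 when all 15 arrays entered without a term for the 3 on another scale. Those 3 arrays share most of their values across genotypes, so neither fit of 15 arrays is a check of the genotype difference.

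Genes of cDC1s led the negative interactions: 14 of 30 measured cDC1 genes passed below 0 and 0 above it, with a list median of -1.61. Of all genes, 0.188% passed below 0 and 0.115% above it. Tlr3 had 5.60 and 5.56 in Id2 KO CDPs, against 5.50 and 5.44 in WT CDPs, and 7.77 and 7.82 in Id2 KO Zbtb46-GFP+ cells, against 11.56 and 11.59 in WT Zbtb46-GFP+ cells. Its interaction was -3.90 (SE 0.19, limma adjusted p = 1.01e-05). Gpr141b, a G protein-coupled receptor gene, had 5.15 and 5.29 in Id2 KO CDPs, against 4.76 and 5.09 in WT CDPs, and 6.11 and 5.53 in Id2 KO Zbtb46-GFP+ cells, against 9.81 and 10.94 in WT Zbtb46-GFP+ cells (interaction -4.85, SE 0.43). Gcsam, a signalling adaptor of germinal centre B cells, Snx22, a sorting nexin, and Rasgrp3, a Ras guanine nucleotide exchange factor, had interactions of -3.51, -3.44 and -3.38. In CDPs the 3 genes differed by 0.14, 0.17 and -0.04. Their signals were 4.72 to 6.45 on the 4 CDP arrays, 4.94 to 6.67 in Id2 KO Zbtb46-GFP+ cells and 8.23 to 10.17 in WT Zbtb46-GFP+ cells. Batf3 had 8.21 and 8.38 in Id2 KO Zbtb46-GFP+ cells, against 9.99 and 9.85 in WT Zbtb46-GFP+ cells, with an interaction of -1.55 (SE 0.26, limma adjusted p = 0.033). Ifi207 had an interaction of -1.32 and was, at 0.44, 1 of the 20 genes with the largest moderated t in CDPs.

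Positive interactions included genes that were well measured in CDPs. Nfil3 had 10.45 and 10.14 in Id2 KO Zbtb46-GFP+ cells, against 7.49 and 7.57 in WT Zbtb46-GFP+ cells, with an interaction of 2.60 (SE 0.38, limma adjusted p = 0.0195); the Id2 KO cells of the later stage thus had values near the 9.36 to 10.11 of all 4 CDP arrays. Cd93, a C-type lectin-like receptor of early progenitors, had 11.39 and 11.55 in Id2 KO CDPs, against 11.63 and 11.62 in WT CDPs, and 9.62 and 9.92 in Id2 KO Zbtb46-GFP+ cells, against 7.39 and 7.81 in WT Zbtb46-GFP+ cells (interaction 2.33, SE 0.27). Ly6d had 11.16 and 10.88 in Id2 KO Zbtb46-GFP+ cells, against 6.68 and 7.30 in WT Zbtb46-GFP+ cells (interaction 3.74, SE 0.56). Capg, an actin-capping protein, P2ry13, a purine receptor, and Cdh1, E-cadherin, had interactions of 2.04, 2.22 and 2.25, with CDP differences of -0.06, 0.25 and 0.36. Jchain, the joining chain of immunoglobulins, had the largest absolute CDP difference of the 58 genes, -0.66, where replicate 2 of WT at 5.73 stood above the 4.51 to 4.70 of the other 3 CDP arrays. Of 32 pDC genes 1 passed above 0, Ly6d, where 0.115% of all genes did. The list's median interaction was 1.01, beside -0.01 for all genes. Of the promoters in the table, an E-box core was found in 10 of 32 genes with an interaction below 0 (31.2%) and 5 of 14 above 0 (35.7%), beside 26.8% of all tested genes.

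**Figure D5:**
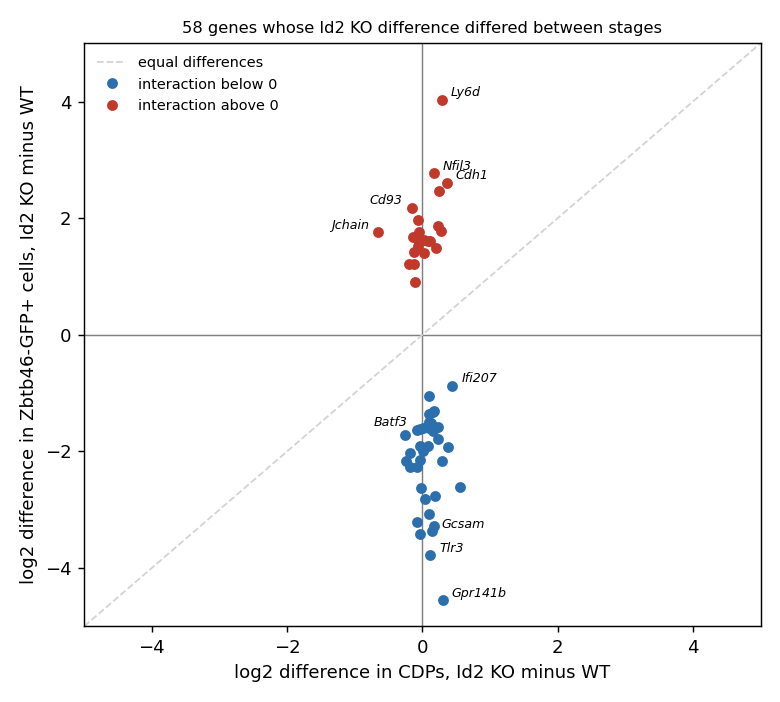
The 58 genes whose Id2 KO minus WT log2 difference differed between the stages at a limma adjusted p under 0.05; x axis, the difference in CDPs, y axis, the difference in Zbtb46-GFP+ cells, dashed line, equal differences. The points lie within 0.66 of 0 on the x axis and reach -4.55 (Gpr141b) and 4.03 (Ly6d) on the y axis.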

How the data were processed

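The authors deposited intensity on a linear scale, summarised per probe set with RMA in Affymetrix Expression Console (per the submitters' processing notes; versions and settings are not given in the sources used here). Total RNA of the sorted cells was column-purified and labelled as biotinylated cDNA with the Affymetrix WT Pico reagents, per the labels' protocols. Log2 was taken of each value. Of 28853 probe sets, 21789 had 1 gene symbol, 1621 had several and 5443 were not in the annotation; symbols were checked against RefSeq (21766 probe sets matched). The probe set with the highest mean stood for a gene, and 751 genes on X or Y were left out.

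limma 3.58.1 in R 4.3.3 was fitted to 6 group means on 12 arrays (6 residual degrees of freedom), two-sided, with Benjamini-Hochberg adjustment over 19187 genes and a threshold of 0.05. The procedure was tested on simulated data. Their noise was drawn independently for each array, so the shared deviation of same-numbered CDP arrays was not part of that test. Pairing by replicate number was checked on the residuals, and its result stands with the alternatives. Genes named are Id2, members of the Id and E protein, receptor and regulator lists, the 10 genes with the largest moderated t in each direction, called genes of the other comparisons (up to 5 more in each direction) and the 5 genes with the largest stage difference each way. Other list members named as examples were chosen after their values were seen. Of 428 genes on 18 lists written from general knowledge, 395 were measured. The comparison, the lists and the choice of 12 arrays were made with earlier results of these data known.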

Additional observations from a re-analysis of the deposited data

Results flagged for a closer look

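The Id2 KO minus WT difference was not the same in Zbtb46-GFP+ cells and CDPs for 14 named genes, by the interaction test. The test was limma, adjusted over 19187 genes, with 2 arrays in each of the 4 groups. The genes were picked on the same arrays that the settings below reuse, so a kept sign is no independent support. Below 0 were Gpr141b (-4.85, adjusted p = 0.00111), Tlr3 (-3.90, adjusted p = 1.01e-05), Gcsam (-3.51, adjusted p = 0.00111), Snx22 (-3.44, adjusted p = 0.00111), Rasgrp3 (-3.38, adjusted p = 0.00144), Batf3 (-1.55, adjusted p = 0.033) and Ifi207 (-1.32, adjusted p = 0.0295). Above 0 were Ly6d (3.74, adjusted p = 0.0196), Nfil3 (2.60, adjusted p = 0.0195), Jchain (2.42, adjusted p = 0.0229), Cd93 (2.33, adjusted p = 0.00496), Cdh1 (2.25, adjusted p = 0.00514), P2ry13 (2.22, adjusted p = 0.0281) and Capg (2.04, adjusted p = 0.0162). Of the 14 genes, 7 passed with each array of the 4 groups left out in turn. In a fit of all 15 arrays with a term for the 3 on another scale, 4 passed. Those 3 arrays share most of their values across genotypes, so that fit is no check of a genotype difference. All 14 genes had the same sign in every setting.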

How the results depend on the processing

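Between Id2 KO and WT CDPs the count of 0 genes became 5 with genes on X and Y kept (Xist, Kdm5d, Uty, Eif2s3y and Lipo3), 3 with the replicate block over the 6 CDP arrays (Lipo3, Mgl2 and Ltf), and 0 to 1 with an array left out (the kappa variable gene of probe set 10545173, without replicate 1 of WT); unadjusted counts ran from 1 (all 15 arrays) to 617 (replicate block, 6 CDP arrays). With the replicate block on 12 arrays it stayed at 0, with 205 genes at an unadjusted p under 0.05. Same-numbered CDP arrays deviated together (residual correlation 0.61 for Id2 KO and WT, 0.53 for Id2 KO and Batf3 KO, 0.69 for Batf3 KO and WT), with 2 pairs each and no label that gives a number a meaning. Between Id2 KO and Batf3 KO CDPs the count of 5 became 1 on the 6 CDP arrays alone, 0 on all 15 arrays, 3 with a term for the 3 arrays on another scale, 3 with 75th percentile centring, 27 with the replicate block, 12 with an array set block, and 1 to 9 with an array left out. Between Batf3 KO and WT CDPs the count of 5 became 3 on the 6 CDP arrays alone, 0 on all 15, 10 with X and Y kept, 27 with the replicate block, 19 with an array set block and 2 to 4 with an array left out. The interaction count of 58 became 0 on all 15 arrays (5 at an unadjusted p under 0.05), 20 with a term for the 3, 163 with quantile normalization, 114 with the replicate block on 12 arrays, 356 with an array set block, and 21 to 78 with an array left out (28 without replicate 1 of WT CDPs, 36 without replicate 1 of Id2 KO CDPs, 22 and 21 without replicates 2 and 3 of Id2 KO Zbtb46-GFP+ cells). Between Id2 KO and WT Zbtb46-GFP+ cells the count of 331 became 192 with a term for the 3, 635 with quantile normalization, 525 with the replicate block on 12 arrays and 1167 with an array set block. The median over Zbtb46-GFP+-stage genes ran from -0.0355 to 0.2051 with an array left out. The leave-one-out medians of the neutrophil, basophil and monocyte lists were added after seeing the data; that of the neutrophil list was 1.06 without replicate 2 of Id2 KO. Fewer arrays leave fewer degrees of freedom, and called genes on X and Y enter the adjustment of Lipo3. The 3 arrays on another scale share most of their values across genotypes. Counts on all 15 arrays, with or without a term for them, are thus no check of genotype. Other causes of these changes were not tested.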
